A study of Mus musculus with 6 samples.

Results

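Tnfaip3, Tnip1, Tnip2, Cyld, Zc3h12a, Zfp36, Zfp36l1 and Zfp36l2 form a set of 8 mouse genes that restrain inflammatory signalling at 2 levels, the ubiquitin chains that carry the signal and the messenger RNAs that it produces. They were chosen by name from these known roles, with earlier results of these data known. Probes were found by gene symbol in the platform annotation: 14 of the 25697 probes on the array name 7 of the 8 genes, out of 16593 named genes. Zfp36l2 is not analysed here. Tnfaip3, Cyld and Zfp36 have 1 probe each, Tnip2 and Zc3h12a have 2, Zfp36l1 has 3 and Tnip1 has 4. The brightest probe stands for its gene, and all 7 of these were detected, at a detection p-value under 0.01, on all 6 arrays.

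The arrays hold RNA of bone marrow-derived macrophages from female mice of the strain given as 129/BL6, either Irak2 knockout or wild type. For each genotype, cells grown for 5 days in L929-conditioned medium, a source of macrophage growth factor, were exposed for 2 h to 1 µg/ml R848, exposed for 2 h to 1 µg/ml CpG B, or left untreated. That makes 6 groups with 1 Illumina mouseRef-8 v2 bead array each. The labels do not say how many mice gave cells or whether their cells were pooled. R848 is a small-molecule agonist of Toll-like receptor 7 in the mouse, CpG B a class of oligonucleotide that activates Toll-like receptor 9, and IRAK2 a kinase that acts with the adaptor MyD88 below both receptors.

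Toll-like receptor signalling builds ubiquitin chains on IRAK and TRAF proteins, and these chains recruit the kinases that activate NF-kB. A20, the product of Tnfaip3, edits such chains with a deubiquitinase and a ligase activity and is itself a classical NF-kB target. ABIN-1 (Tnip1) and ABIN-2 (Tnip2) are ubiquitin-binding partners of A20, and CYLD is a deubiquitinase that removes the same kinds of chain. The second arm acts on transcripts: ZC3H12A (Regnase-1) is a ribonuclease that cuts stem-loops in cytokine messengers. Tristetraprolin (Zfp36) and its relatives ZFP36L1 and ZFP36L2 bind AU-rich elements and recruit deadenylases.

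The promoters of the 5 genes that passed 2-fold with both agonists are shown because 4 of them were higher together and Zfp36l1 was lower. Each run covers the 250 bases before the annotated start of transcription, 5′ to 3′ on the gene's own strand, which is the minus strand for all 5 (RefSeq, GRCm38.p6). The windows are chr10:19015411-19015660 for Tnfaip3, chr11:54962941-54963190 for Tnip1, chr4:125127882-125128131 for Zc3h12a, chr7:28379229-28379478 for Zfp36 and chr12:80113014-80113263 for Zfp36l1. Capitals mark matches to the 10-base NF-kB consensus or to its shorter relative GGAANTNCC.

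Tnfaip3: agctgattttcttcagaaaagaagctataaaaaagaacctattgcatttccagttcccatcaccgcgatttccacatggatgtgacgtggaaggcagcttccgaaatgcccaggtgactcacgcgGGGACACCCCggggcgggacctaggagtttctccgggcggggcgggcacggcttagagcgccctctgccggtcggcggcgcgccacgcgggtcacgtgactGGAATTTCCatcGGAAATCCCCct
Tnip1: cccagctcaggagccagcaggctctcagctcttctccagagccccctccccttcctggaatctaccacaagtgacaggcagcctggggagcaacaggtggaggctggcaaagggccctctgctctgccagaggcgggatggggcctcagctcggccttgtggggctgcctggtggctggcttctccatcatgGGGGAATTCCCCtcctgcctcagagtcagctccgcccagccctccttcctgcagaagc
Zc3h12a: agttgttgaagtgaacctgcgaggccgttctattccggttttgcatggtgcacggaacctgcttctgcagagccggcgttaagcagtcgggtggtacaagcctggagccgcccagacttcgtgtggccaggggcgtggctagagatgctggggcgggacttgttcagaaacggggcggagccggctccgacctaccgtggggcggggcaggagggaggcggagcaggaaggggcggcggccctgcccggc
Zfp36: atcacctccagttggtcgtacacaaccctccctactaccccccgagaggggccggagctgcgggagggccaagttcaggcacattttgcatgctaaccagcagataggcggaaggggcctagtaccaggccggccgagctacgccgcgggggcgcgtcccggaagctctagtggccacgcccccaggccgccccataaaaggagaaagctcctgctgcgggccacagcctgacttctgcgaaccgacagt
Zfp36l1: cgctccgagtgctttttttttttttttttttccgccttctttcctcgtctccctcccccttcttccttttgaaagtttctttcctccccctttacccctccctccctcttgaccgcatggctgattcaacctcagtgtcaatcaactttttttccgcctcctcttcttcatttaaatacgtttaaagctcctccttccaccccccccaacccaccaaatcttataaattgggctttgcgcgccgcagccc

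The Tnfaip3 window holds NF-kB consensus matches that begin 125 and 12 bases before the start, and a GGAANTNCC match 24 bases before it. The second of the consensus matches overlaps a further match to the shorter motif. The Tnip1 window holds a single palindromic run of 12 bases, from 58 bases before the start, that contains 3 overlapping consensus matches. In a search of both strands, 7.25% of 32851 promoter windows of the same length hold the consensus and 3.92% hold GGAANTNCC, a motif chosen after the sequences had been read. TGANTCA, the AP-1 motif, occurs in 6.75% of windows and was found at Tnfaip3 and Zfp36l1, and TGACGTCA, the CRE motif, occurs in 1.55% and was found at none of the 7 genes with a window. The windows of Zc3h12a and Zfp36 hold none of these motifs. Cyld, whose window is not shown, holds 1 consensus match, 155 bases before the start. A second annotated start of Tnfaip3, inside the gene, holds none.

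Between 34.9% and 37.8% of probes were detected per array, and 7149 genes on at least 1 array. The Irak2 transcript was lower on the knockout arrays with either agonist. Its brightest probe read 834.8 with R848, 621.6 with CpG B and 377.9 untreated in knockout cells. In wild-type cells it read 3695, 2617.6 and 534.2 under the same conditions. A second probe read 640.7 with R848, 555.6 with CpG B and 338.5 untreated in knockout cells, against 2594.3, 2116.6 and 341.6 in wild-type cells. On that probe the untreated arrays were nearly level. The labels do not name the deleted part of Irak2, so a transcript that is still detected does not go against the label. Of 8 macrophage markers with a probe, 7 were detected, and their summed normalized level was 51360 to 77340 on knockout arrays and 58430 to 78350 on wild-type arrays. Of 7 neutrophil markers, all were detected, with sums of 9969 to 13130 in knockout cells and 15890 to 18800 in wild-type cells. The markers did not all run that way: Mpo was at 10.42 with R848, 10.51 with CpG B and 10.56 untreated in knockout cells, against 9.72, 10.13 and 9.86 log2 in wild-type cells, and Elane at 8.40, 8.69 and 8.58 against 8.33, 8.71 and 8.60. The 4 dendritic-cell markers detected were the class II genes H2-Ab1, H2-Aa, H2-Eb1 and Cd74, while Flt3, Zbtb46, Ccr7 and Xcr1 were not well above background. The sums of the 8 dendritic-cell markers with a probe were 14680 to 19870 in knockout cells and 4524 to 7522 in wild-type cells. T-cell, NK-cell, mast-cell, erythroid and fibroblast markers were not well above background on any array, and 1 of 3 B-cell markers was detected. The part of these marker differences in the genotype comparisons was not tested. In such bulk RNA, fewer cells of a type and less RNA per cell cannot be told apart.

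The processed values in the same deposit hold, for each genotype, a second untreated array that can be recovered from them. Between the first and second untreated array, 0.783% of genes in knockout cells and 0.685% in wild-type cells differed by 2-fold or more. These shares are over the 7149 genes detected on at least 1 array, not only those detected in untreated cells. Pair differences, and all values below with the second arrays, are on quantile-normalized intensities without background correction. A floor of 16 on that scale makes genes below it level. These pairs are the only view of the spread between arrays of a group, and whether they came from separate cultures is not given. Other differences below are log2 values between single arrays, after background correction and quantile normalization, and those given as such have no p-value.

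Tnfaip3, which encodes A20, had the largest range of the 7 genes. Its intensity was 3109.8 with R848, 2203.4 with CpG B and 458.7 untreated in knockout cells. In wild-type cells it was 9635.4 with R848, 3682.4 with CpG B and 212.6 untreated. The 4 stimulated arrays lay above both untreated arrays, with the wild-type R848 array highest and the wild-type untreated array lowest. R848 raised the level 8.09-fold in knockout cells (3.02 log2) and 41.7-fold in wild-type cells (5.38 log2). CpG B raised it 6.11-fold in knockout cells (2.61) and 13.9-fold in wild-type cells (3.79). In the order of normalized log2 levels, the wild-type R848 array at 13.16 stood 1.40 above the next. The knockout R848, wild-type CpG B and knockout CpG B arrays followed at 11.75, 11.57 and 11.35, and these neighbours lay no further apart than the wild-type untreated pair, which differed by 0.42. The untreated levels were 8.74 in knockout cells and 7.77 in wild-type cells.

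Tnip1, the gene of the A20 partner ABIN-1, responded to both agonists in both genotypes. Its brightest probe read 6309.4 with R848, 5984.6 with CpG B and 1047.5 untreated in knockout cells. In wild-type cells it read 9127.2 with R848, 7368.9 with CpG B and 746.8 untreated. All 4 stimulated arrays lay close together and well above the untreated ones. The R848 difference was 6.98-fold in knockout cells (2.80 log2) and 11.9-fold in wild-type cells (3.58), and the CpG B difference 7.09-fold in knockout cells (2.83) and 8.52-fold in wild-type cells (3.09). The 4 stimulated log2 levels ran from 12.60 to 13.09, within the 0.76 by which the wild-type untreated pair differed on this probe, so they have no firm order.

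The other Tnip1 probes gave the same direction at lower brightness. The second brightest differed with R848 by 9.14-fold in knockout cells and 14.1-fold in wild-type cells. The next was not well above background on the untreated arrays and gave bounds of at least 2.69-fold in knockout cells and at least 4.2-fold in wild-type cells. The dimmest was detected on the wild-type R848 array only. Which Tnip1 transcripts each probe measures was not tested.

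Tnip2 and Cyld, by contrast, stayed within a narrow band. Tnip2 read 245.8 with R848, 189.2 with CpG B and 267.1 untreated in knockout cells, and 230.6, 284.6 and 214.5 in wild-type cells in the same order of conditions. Its normalized levels ran from 7.79 to 8.17 log2, and the untreated pair of knockout cells differed by 0.33. The second Tnip2 probe was detected on 2 arrays, both of knockout cells. Cyld read 1483.5 with R848, 1389.4 with CpG B and 1718.9 untreated in knockout cells, and 1746.6, 2244.9 and 1641.4 in wild-type cells. The higher wild-type CpG B intensity went with a brighter array, whose median intensity of 27.7 was the highest of the 6. After normalization the 6 Cyld levels ran from 10.65 to 10.87, and neighbours in that order differed by at most 0.16.

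Zc3h12a, the Regnase-1 gene, was near background in untreated cells and rose with both agonists. It read 1024.9 with R848, 1010.4 with CpG B and 148.9 untreated in knockout cells. In wild-type cells it read 3203.2 with R848, 1388.3 with CpG B and 139.7 untreated. The wild-type R848 array stood alone at 11.66 log2, the other 3 stimulated arrays lay between 10.17 and 10.23, and the untreated arrays were at 7.19 in knockout cells and 7.23 in wild-type cells. R848 raised the level 7.88-fold in knockout cells (2.98) and 21.5-fold in wild-type cells (4.43), and CpG B 8.2-fold in knockout cells (3.04) and 7.7-fold in wild-type cells (2.94). A second, dimmer probe was not well above background on the untreated arrays. It put the R848 difference at no less than 2.09-fold in knockout cells and 5.41-fold in wild-type cells.

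Zfp36, which encodes tristetraprolin, was already abundant in untreated cells. It read 5340 with R848, 4378.1 with CpG B and 2214.8 untreated in knockout cells. In wild-type cells it read 16112.4 with R848, 7430.1 with CpG B and 2238.8 untreated. Again the wild-type R848 array stood apart, at 13.90 log2, and the other 3 stimulated arrays lay between 12.32 and 12.61. R848 raised the level 2.69-fold in knockout cells (1.43) and 7.02-fold in wild-type cells (2.81). CpG B raised it 2.39-fold in knockout cells (1.26) and 2.88-fold in wild-type cells (1.53). The untreated pairs differed by -0.44 in knockout cells and -0.27 in wild-type cells (second minus first array), so these differences would be larger against the second arrays.

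Zfp36l1, a relative of Zfp36 that binds the same kind of element, moved the other way. Its brightest probe read 2491.8 with R848, 2446 with CpG B and 7372.2 untreated in knockout cells. In wild-type cells it read 2707.7 with R848, 3008.2 with CpG B and 6171.8 untreated. The stimulated arrays, at 11.28 to 11.51 log2, lay below the untreated ones, at 12.85 in knockout cells and 12.60 in wild-type cells. R848 lowered the level 2.64-fold in knockout cells (-1.40) and 2.25-fold in wild-type cells (-1.17), and CpG B lowered it 2.52-fold in knockout cells (-1.33) and 2.49-fold in wild-type cells (-1.32).

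The size of the Zfp36l1 difference depended on which untreated array it was taken from. The second untreated array was lower than the first by 0.59 log2 in knockout cells and 0.86 in wild-type cells. Against it, R848 gave -0.80 in knockout cells and -0.30 in wild-type cells, and CpG B gave -0.73 in knockout cells and -0.44 in wild-type cells, all 4 still negative and all under 2-fold. A second Zfp36l1 probe gave -1.63 in knockout cells and -0.98 in wild-type cells with R848 against the first arrays, and the remaining probe was not well above background on any array.

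**Figure D1:**
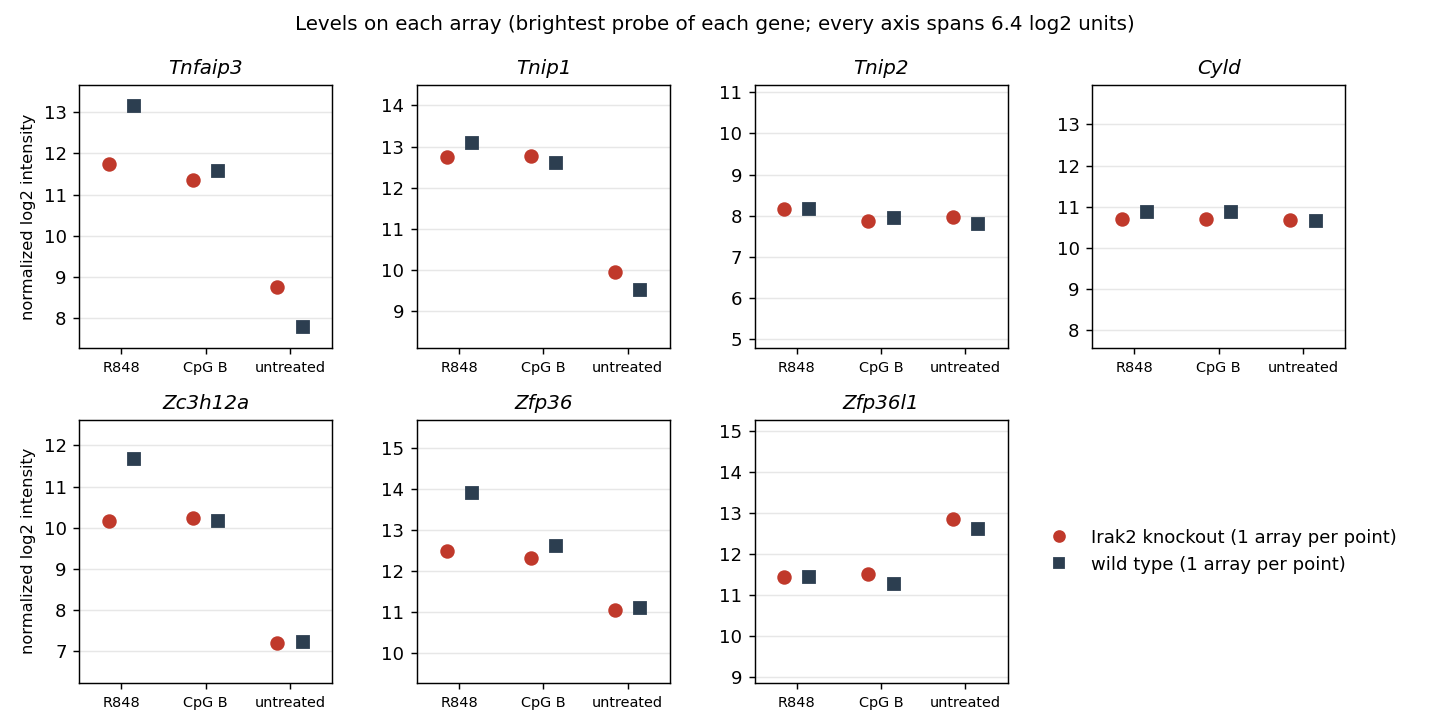
Normalized log2 intensity (vertical axis) of the brightest probe of each gene by condition (horizontal axis) in Irak2 knockout cells (circles) and wild-type cells (squares), 1 array per point, with every axis spanning 6.4 log2 units. The wild-type R848 array stands above the other stimulated arrays for Tnfaip3, Zc3h12a and Zfp36, at 13.16, 11.66 and 13.90, while Tnip2 and Cyld are flat and Zfp36l1 is lower with either agonist.

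Counted over the 7 genes, each of the 4 stimulations gave the same picture at 2-fold or more: Tnfaip3, Tnip1, Zc3h12a and Zfp36 higher, Zfp36l1 lower, and Tnip2 and Cyld neither. With R848 in knockout cells, 5.77% of the genes compared were higher by that much and 4.68% lower, and in wild-type cells 7.7% were higher and 7.88% lower. With CpG B the shares were 4.64% higher and 3.37% lower in knockout cells, and 3.64% higher and 1.6% lower in wild-type cells. The 4 of 7 higher genes thus stand against a background of under 8% in each stimulation. Both stimulations of a genotype share its untreated array.

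The effect of each agonist over both genotypes was tested with limma, in an additive fit of agent and genotype over the 6 arrays, with Benjamini-Hochberg adjustment over the 7149 genes detected on at least 1 array. Each agonist effect compares 2 stimulated with 2 untreated arrays, and an interaction between agent and genotype adds to the spread of this fit. R848 raised Tnip1 by 3.19 log2 (SE 0.202, adjusted p = 0.00172), Zc3h12a by 3.70 (SE 0.382, adjusted p = 0.00343), Tnfaip3 by 4.20 (SE 0.512, adjusted p = 0.00503) and Zfp36 by 2.12 (SE 0.330, adjusted p = 0.00942). Each of these 4 was higher with R848 in both genotypes. Zfp36l1 fell by 1.29 (SE 0.128, adjusted p = 0.00317). The call was lost in a run with the second untreated arrays added (-0.91, adjusted p = 0.0838). That run also fitted group means, with residual spread from the untreated pairs alone, and used values without background correction. Which of these changes moved the call was not tested. Tnip2, at 0.29 (adjusted p = 0.149), and Cyld, at 0.12 (adjusted p = 0.513), did not pass. That is 4 genes that rose and 1 that fell, where 12.1% of all genes rose and 17.3% fell. The median R848 effect over the 7 genes was 2.12, against -0.08 over all genes.

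CpG B raised 3 of the 7 genes and lowered 1 in the same fit, where 4.7% of all genes rose and 3.99% fell. Tnip1 rose by 2.96 (SE 0.202, adjusted p = 0.00366), Zc3h12a by 2.99 (SE 0.382, adjusted p = 0.0134) and Tnfaip3 by 3.20 (SE 0.512, adjusted p = 0.0227). Zfp36l1 fell by 1.33 (adjusted p = 0.0067), which in the run with the second untreated arrays became -0.95 (adjusted p = 0.118). Zfp36 was at 1.39 (SE 0.330, adjusted p = 0.0614) and did not pass, although its difference was positive in both genotypes. It passed in the run with the second untreated arrays (1.54, adjusted p = 0.00943). There the scale differs and an interaction does not add to the spread, and which change moved these calls was not tested. Without the filter on detection, the Tnfaip3 and Zc3h12a calls were lost, at adjusted p = 0.0811 for Tnfaip3 and 0.0553 for Zc3h12a. Tnip2 was at 0.03 (adjusted p = 0.911) and Cyld at 0.11 (adjusted p = 0.621). The median CpG B effect over the 7 genes was 1.39, against -0.04 over all genes.

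**Figure D2:**
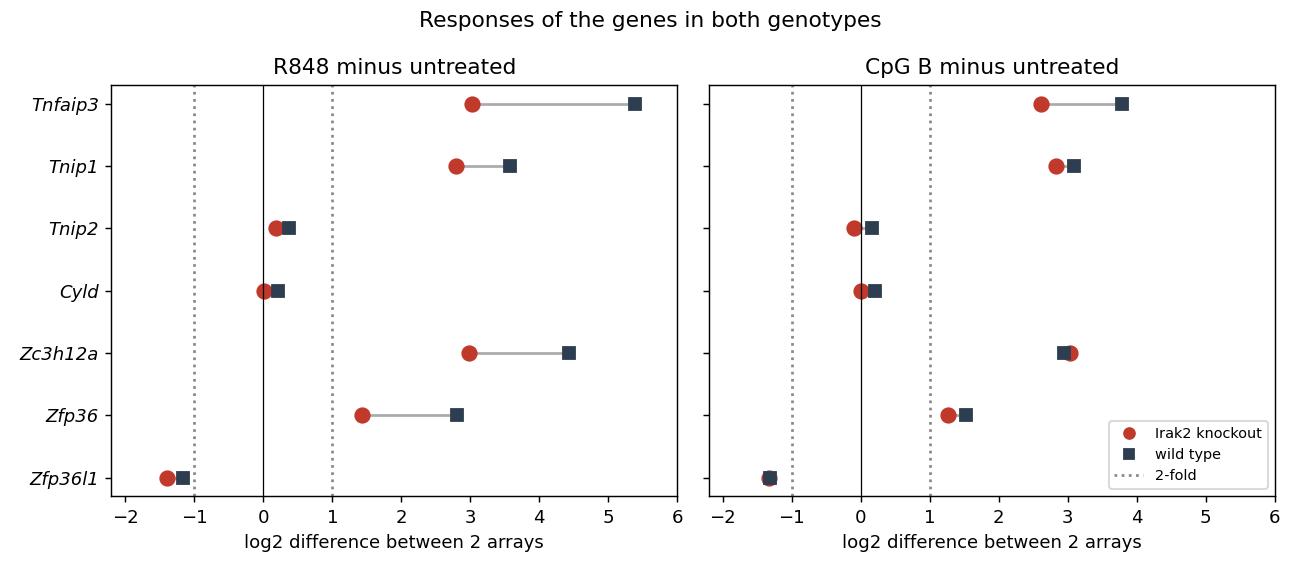
Log2 difference between the stimulated and the untreated array (horizontal axis) for each gene, with R848 on the left and CpG B on the right, in Irak2 knockout cells (circles) and wild-type cells (squares), 1 array against 1 array per point, dotted lines at 2-fold. The gap between genotypes is widest for Tnfaip3 with R848, at 3.02 in knockout and 5.38 in wild-type cells, and the points of Zc3h12a with CpG B nearly coincide at 3.04 and 2.94.

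Set against wild type under R848, the knockout array was lower by 2-fold or more for 3 of the 7 genes. Zc3h12a was 2.81-fold lower in knockout cells (-1.49 log2, and -1.35 on its second probe), Zfp36 2.65-fold lower (-1.41) and Tnfaip3 2.65-fold lower (-1.40). Of all genes compared, 2.48% were lower by that much in knockout cells. The brightest Tnip1 probe gave -0.34 and the next 2 gave -0.63 and -0.62, while Cyld gave -0.17, Tnip2 -0.01 and Zfp36l1 0.01. Under CpG B, 0 of the 7 genes differed by 2-fold between genotypes, with knockout minus wild-type values from -0.29 (Zfp36) to 0.23 (Zfp36l1), where 2.73% of all genes differed by that much in either direction.

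In untreated cells 0 of the 7 genes passed 2-fold between genotypes, where 2.16% of all genes did. Tnfaip3 came nearest, 1.95-fold higher in knockout cells (0.96 log2), and the second untreated arrays gave 0.41. Tnip1 was higher by 0.43 on its brightest probe and by 0.00 on the next. The other 5 genes lay between -0.04 and 0.24.

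The R848 response was smaller in knockout cells by 2-fold or more for the 3 genes Tnfaip3, Zc3h12a and Zfp36. The knockout minus wild-type difference of the R848 response was -2.37 for Tnfaip3, -1.45 for Zc3h12a and -1.38 for Zfp36. Of all genes, 2.15% were lower by 2-fold or more in this signed difference, which can include genes that fell further in knockout cells. With the second untreated arrays the values of the 3 genes were -1.82, -1.16 and -1.22. For Tnip1 the difference was -0.78, and -0.22 with the second untreated arrays. The CpG B response of Tnfaip3 was also smaller in knockout cells, by -1.18, where 0.395% of all genes were lower by 2-fold or more in this signed difference. This CpG B value was -0.90 on the authors' processed values and -0.62 with the second untreated arrays, so it did not stay past 2-fold. The CpG B responses of the other 6 genes differed by -0.27 to 0.09.

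Tested over the 6 arrays, the genotype effect passed for 0 of the 7 genes in limma, where it passed for 3.4% of all genes. Of the members, 0 reached an unadjusted p under 0.05, where 1350 of the 7149 genes did. The genotype effect was largest for Zfp36 at -0.57 (adjusted p = 0.323), Zc3h12a at -0.49 (adjusted p = 0.439) and Tnfaip3 at -0.22 (adjusted p = 0.819). This effect is the mean over the 3 conditions, whereas the differences past 2-fold in these genes lay on the R848 arrays. An interaction of stimulation and genotype shared by both agonists passed for 0% of genes in limma. Its value for Tnfaip3 was -1.77 (SE 0.561, unadjusted p = 0.0342, adjusted p = 1.00), the 1 member of 7 under an unadjusted 0.05, and 136 of the 7149 genes were under it.

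An interaction of genotype with R848 alone was added after these differences had been seen. It sets the knockout minus wild-type difference under R848 against that under CpG B and in untreated cells, which this fit takes to be equal, and 1 residual degree of freedom is left. In limma it passed for 0.727% of all genes and for 1 of the 7, Zc3h12a, at -1.50 (SE 0.224, adjusted p = 0.0483). Zfp36 was at -1.25 (SE 0.239, unadjusted p = 0.00138, adjusted p = 0.0872), Tnfaip3 at -1.78 (SE 0.452, unadjusted p = 0.0061, adjusted p = 0.193) and Tnip1 at -0.64 (SE 0.238, unadjusted p = 0.0319, adjusted p = 0.364). These 4 members were under an unadjusted 0.05, as were 800 of the 7149 genes. Tnip2, Cyld and Zfp36l1 lay between -0.22 and -0.07. The calls moved with the processing: the Zc3h12a call was lost on the processed values (-1.40, adjusted p = 0.128), with no filter (-1.50, adjusted p = 0.176) and with the second untreated arrays added (-1.37, adjusted p = 0.0807). Zfp36 passed without background correction (-1.24, adjusted p = 0.0319), and both Zfp36 and Tnfaip3 passed with median scaling (adjusted p = 0.00875 for Zfp36 and 9.02e-06 for Tnfaip3) and with an offset of 50 (0.019 for Zfp36 and 0.0337 for Tnfaip3). The same fit for CpG B alone, also added after the data had been seen, passed for 0% of genes, with 286 genes and 0 members under an unadjusted 0.05.

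R848 and CpG B were also set against each other at the same dose and time, within each genotype. In knockout cells their levels were close: R848 minus CpG B was 0.40 for Tnfaip3, 0.29 for Tnip2, 0.17 for Zfp36, 0.01 for Cyld, -0.02 for Tnip1, -0.06 for Zc3h12a and -0.07 for Zfp36l1. None of the 7 reached 2-fold, and the knockout arrays for the 2 agonists were alike over all genes compared, with 0.222% of genes past 2-fold in either direction. In wild-type cells R848 gave more than CpG B by 3.01-fold for Tnfaip3 (1.59), 2.79-fold for Zc3h12a (1.48) and 2.44-fold for Zfp36 (1.29), where 3.65% of all genes were higher by 2-fold or more. Tnip1 was at 0.49 on its brightest probe and at 1.12 and 1.15 on the next 2, Tnip2 at 0.23, Zfp36l1 at 0.15 and Cyld at 0.01.

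The 4 arrays of these comparisons leave the untreated arrays out. They include the same wild-type R848 array as the genotype comparison, the R848 responses and the R848 interaction above, so these results are not independent. The knockout and wild-type differences share no array. Their difference, knockout minus wild type, was -1.54 for Zc3h12a, -1.19 for Tnfaip3 and -1.11 for Zfp36, where 2.97% of all genes were lower by 2-fold or more. It was -0.51 for the brightest Tnip1 probe and -0.86 and -0.99 for the next 2, -0.22 for Zfp36l1, 0.00 for Cyld and 0.06 for Tnip2. Over both genotypes the R848 minus CpG B effect was 1.00 for Tnfaip3 (SE 0.512, adjusted p = 0.458), 0.73 for Zfp36 (adjusted p = 0.416) and 0.71 for Zc3h12a (adjusted p = 0.470) in limma. It passed for 0% of all genes, 941 had an unadjusted p under 0.05, and 0 members were among these.

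**Figure D3:**
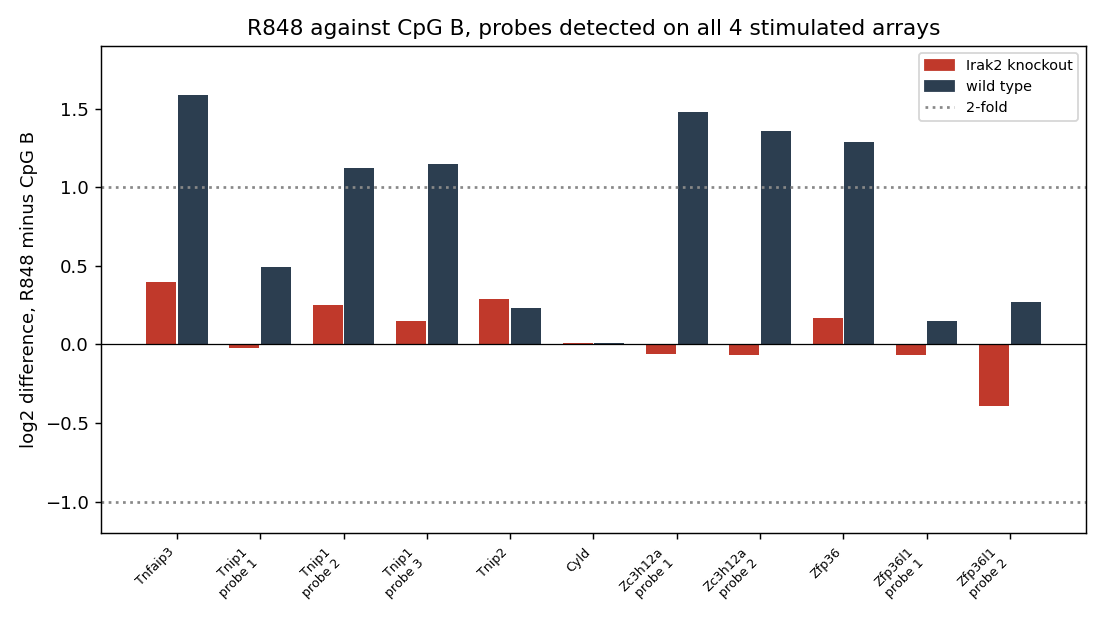
Log2 difference R848 minus CpG B (vertical axis) for every probe of the genes that was detected on all 4 stimulated arrays (horizontal axis), in Irak2 knockout cells (left bar of each pair) and wild-type cells (right bar), 1 array against 1 array, dotted lines at 2-fold. The wild-type bars of Tnfaip3, both Zc3h12a probes and Zfp36 reach 1.29 to 1.59 and those of Tnip1 probes 2 and 3 reach 1.12 and 1.15, while all knockout bars stay between -0.39 and 0.40.

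The genes whose levels over the 6 arrays were most like each responding gene were found by the root mean square difference of centred log2 values, among 5951 genes detected on all arrays. Closest to Tnfaip3 were the guanylate-binding protein gene Gbp3 (0.237 log2), the activation marker Cd69 (0.382) and the death receptor gene Fas (0.415). Closest to Tnip1 were Tlr2 (0.0754), a Toll-like receptor, Lacc1 (0.120) and Nfkbia (0.191), which encodes the NF-kB inhibitor IkB-alpha. Nfkbia rose with R848 by 2.95 in knockout cells and 3.76 in wild-type cells, near the Tnip1 values of 2.80 in knockout cells and 3.58 in wild-type cells. Gbp2 (0.161), Casp4 (0.229), an inflammatory caspase, and the co-stimulatory receptor gene Cd40 (0.240) were closest to Zc3h12a. Samsn1 (0.173), Marcks (0.187) and the stress-response gene Gadd45a (0.204) were closest to Zfp36, and Slc16a6 (0.163), Syne3 (0.171) and Rfc4 (0.177) to Zfp36l1. Among the 7 genes themselves, Tnfaip3 and Zc3h12a were 0.363 apart, while Tnip2 and Cyld, both nearly flat, were 0.125 apart. These distances rest on 6 arrays and describe likeness only.

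The wider machinery around these proteins was described by 3 lists of known genes. Of 27 genes of A20 partners, deubiquitinases and ubiquitin-chain assembly, 18 were tested in limma, and 2 passed for R848 (11.1%), below the 29.4% of all genes that passed in either direction. Both were below background on both untreated arrays and entered the test through stimulated arrays, so their count and p-values are a description only. Birc3, which encodes the ubiquitin ligase cIAP2, had log2 levels with R848 of 8.75 in knockout cells and 9.87 in wild-type cells, and was not well above background on the untreated arrays. Its fitted effect over both genotypes was 2.94 with R848 (adjusted p = 0.00385) and 2.36 with CpG B (adjusted p = 0.0153). As a bound, which was not itself tested, its level was at least 6.33-fold higher with R848 and at least 4.24-fold higher with CpG B. Traf2, the adaptor that recruits cIAP proteins, had a fitted R848 effect of 0.97 (adjusted p = 0.02) and a bound of at least 1.42-fold higher. Birc3 was the 1 gene of this list that rose with CpG B, where 8.69% of all genes passed in either direction. The list's median effect was 0.23 with R848 and 0.17 with CpG B, and 0 of its genes passed for genotype in limma. Unadjusted limma p-values for genotype were under 0.05 for 1 of the 18 genes and for 1350 of the 7149 genes tested.

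Of 43 genes of the mRNA decay machinery and AU-rich element binding proteins, 28 were tested. R848 raised 5 of them and lowered 2, which is 25% and again not above the 29.4% of all genes. Mapkapk2, the gene of the kinase MK2 that phosphorylates tristetraprolin, rose by 1.88 with R848 (adjusted p = 0.00221) and by 1.69 with CpG B (adjusted p = 0.00608). Its log2 levels were 13.25 with R848, 13.23 with CpG B and 11.58 untreated in knockout cells, against 13.39, 13.01 and 11.29 in wild-type cells, so the stimulated arrays lay close together. Rc3h1, which encodes Roquin-1, a partner of Regnase-1 in target recognition, rose by 0.96 (adjusted p = 0.0369), though in knockout untreated cells it was not well above background. Btg1, an activator of deadenylation, rose by 0.64 (adjusted p = 0.0143), the decapping cofactor gene Dcp1a by 0.63 (adjusted p = 0.0148) and the deadenylase gene Cnot7 by 0.51 (adjusted p = 0.034). Cnot6l, another deadenylase gene, fell by 1.10 (adjusted p = 0.0191). Tob1, which links deadenylases to poly(A)-binding protein, had a fitted R848 effect of -0.66 (adjusted p = 0.0425). It was not well above background on either R848 array, which gives a bound of at least 1.23-fold lower.

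For CpG B, 2 genes of the decay list passed, Mapkapk2 and Dcp1a (0.57, adjusted p = 0.0429), both higher with it, a share of 7.14% near the 8.69% of all genes. The median effect was 0.06 with R848 and 0.08 with CpG B. For genotype, 1 gene passed (3.57%, against 3.4% of all genes): Dcp1b, a decapping cofactor gene, was lower in knockout cells by 0.61 (adjusted p = 0.0361), with log2 levels of 8.66, 8.57 and 8.71 in knockout cells and 9.20, 9.22 and 9.35 in wild-type cells with R848, with CpG B and untreated. All 3 knockout arrays lay below the 3 wild-type ones.

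Transcripts known as targets of the ZFP36 family or of ZC3H12A were mostly inflammatory and mostly rose. Of 22 such genes, 15 were tested; R848 raised 11 and lowered 2, and CpG B raised 10 and lowered 1, where 29.4% of all genes passed for R848 and 8.69% for CpG B. Of the raised genes, 5 with R848 and 4 with CpG B were below background on both untreated arrays and so entered the test only through stimulated arrays. Among the 8 genes of the list detected on all 6 arrays, R848 raised 4 and lowered 2, and CpG B raised 4 and lowered 1. Of all genes detected on all 6 arrays, R848 raised 11% and lowered 15.8%, and CpG B raised 3.96% and lowered 3.31%. The cytokine gene Il1b had a fitted R848 effect of 8.62 (adjusted p = 0.00172), but it was not well above background on the untreated arrays. Its bound was at least 160-fold higher with R848. The chemokine genes Cxcl1 and Cxcl2 and the cytokine gene Tnf rose by 7.40 (adjusted p = 2.85e-05), 7.39 (adjusted p = 0.000235) and 5.33 (adjusted p = 0.00165), although Cxcl1 and Cxcl2 were not well above background on the knockout untreated array, where they give at least 145-fold and at least 101-fold. Plau, the urokinase gene, fell by 3.40 (adjusted p = 0.00278), and the AP-1 gene Fos fell by 1.51 (adjusted p = 0.00963). The list's median was 3.66 with R848, or 3.59 with genes below background at their bound, and 3.50 with CpG B, or 1.98 with those bounds. For genotype, 2 of the 15 genes passed in limma (13.3%, against 3.4% of all genes), both lower in knockout cells. Cxcl1 was lower by 1.31 (adjusted p = 0.0038) and Cxcl2 by 1.05 (adjusted p = 0.0351). Both fitted values include the knockout untreated array, where neither gene was well above background.

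**Figure D4:**
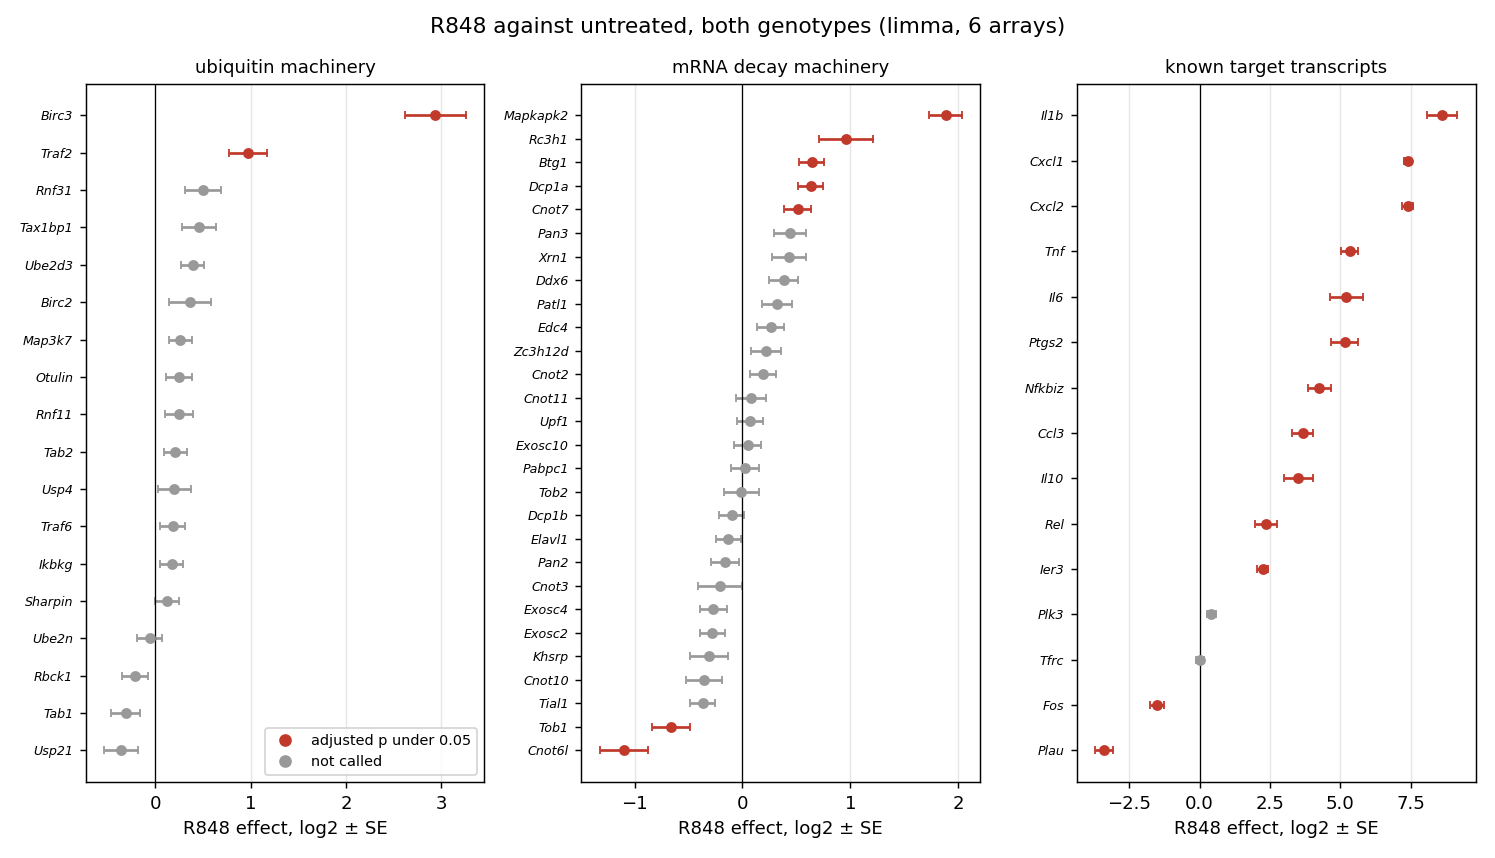
R848 effect over both genotypes in limma (horizontal axis, log2 with its standard error) for every tested gene of the 3 lists (rows), from 6 arrays; red points have an adjusted p under 0.05 and the scales differ between panels. R848 called 2 of 18 ubiquitin genes, 7 of 28 decay genes and 13 of 15 known target transcripts, where it called 29.4% of all genes, and fitted values of genes below background on the untreated arrays, such as Il1b and Birc3, are no bounds.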

How the data were processed

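The authors deposited a BeadStudio table, per the submitters' processing notes, of intensity values without normalization between arrays; no BeadStudio version is recorded there. Beside each intensity, per the file headers, stands a detection p-value. Between 33.4% and 34.4% of intensities on an array are below 0, so background had been subtracted. Detected probes started at intensities of 68.2 to 96.6, which limits low genes. The authors also deposited processed intensity values, found to be linear and quantile normalized. Of the 4 stimulated samples' values, 99.7% to 99.8% matched the quantile-normalized array to within 0.5 units. Of the untreated samples' values, 6.66% (knockout) and 6.40% (wild type) did. Taking those columns as means of 2 arrays, the second array follows as the column times 2 minus the first, and 99.7% (knockout) and 95.9% (wild type) of its sorted values fitted the common distribution.

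Intensities were background-corrected from the detection p-values (normexp), given an offset of 16, quantile normalized and set on a log2 scale with limma 3.58.1 (neqc) in R 4.3.3. Probes were named through the platform annotation (1719 of 25697 unnamed), and the probe with the highest mean stands for a gene. A single-array difference was taken for each gene with a detection p under 0.01 on either array. The additive limma fit (agent and genotype) has 2 residual degrees of freedom and each interaction fit 1. Runs with the second untreated arrays used quantile-normalized intensities with a floor of 16, without background correction. Their agonist and genotype effects came from a fit of group means, whose residual spread comes from the untreated pairs alone. Where a probe was below background on an array, "at least" sets the brighter log2 value against the higher of that probe's own value and the lowest value of a detected probe there, averaged over arrays for a fit. Because nothing says that arrays came from separate cultures, p-values measure the spread between these arrays, which may be technical.

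Named were all 8 genes and their probes, up to 4 genes per list and direction past the R848 and genotype tests, any list member where 5 or fewer passed, and the 3 genes most like each responding gene. The genes and lists were chosen with earlier results of these data known. As alternatives, background correction was left out, and the processed values, median scaling, an offset of 50, other filters, every probe, a log2 threshold of 1.5, the second untreated arrays and fits without a condition were used. The comparison of R848 with CpG B, the differences of responses and the interactions of genotype with 1 agonist were added after seeing the data.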

Additional observations from a re-analysis of the deposited data

Results flagged for a closer look

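The Tnfaip3 difference between genotypes changed sign with the condition. Under R848 the knockout array was lower than the wild-type array by a log2 difference of -1.40, while in untreated cells the knockout array was higher, by 0.96. With the recovered second untreated arrays the untreated difference was 0.41. In limma, the interaction of genotype with R848 alone, added after the data had been seen, was -1.78 for Tnfaip3 (unadjusted p = 0.0061, adjusted p = 0.193 over all genes). The interaction shared by both agonists had an adjusted p of 1.00 (0.0342 unadjusted).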

How the results depend on the processing

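Each count and each gene was recomputed under the alternatives. Of 172 recomputed counts, 152 kept within 1.5 times the reported value and 20 moved. Of 987 values of single genes, 943 kept their side of the threshold, 31 lost the call and 13 gained it. Of the called values 0 changed sign, while the signs of values not called were not compared. With genes detected on all 6 arrays, the lists had 13 calls for R848 in place of 22 and 9 for CpG B in place of 14, since fewer genes were tested. With no filter, 2 of the 7 genes were called for CpG B in place of 4, and 8 list genes. The interaction of R848 and genotype called 2 of the 7 genes in place of 1 without background correction. It called 3 with median scaling and 3 with an offset of 50. On the processed values, with no filter and with 8 arrays (the second untreated arrays added), it called 0. The share of all genes that it called under these settings was not counted, so these counts are a description only. Without both untreated arrays, 0 list genes passed for genotype in place of 3. The count of genes with a smaller CpG B response in knockout cells was 0 in place of 1 on the processed values, with the second untreated arrays and at a log2 threshold of 1.5. That threshold left 3 genes in place of 5 for each agonist against untreated in knockout cells and 0 in place of 3 for knockout against wild type under R848. It left 1 in place of 3 for R848 against CpG B in wild-type cells, for the R848 response and for the R848 minus CpG B difference between genotypes. Beyond the construction named, the cause of these shifts was not tested. Median scaling in place of quantile normalization moved the median of all genes from -0.02 to -0.28 for knockout against wild type under CpG B, from -0.06 to -0.26 for R848 against CpG B in wild-type cells, from -0.10 to -0.21 for R848 against untreated in wild-type cells and from -0.04 to -0.15 for CpG B against untreated in knockout cells; the counts of the 7 genes past 2-fold were the same under it. Precision is limited by 1 array per group, and for dim probes by signal over background. No paired analysis was possible because the labels carry no replicate numbers and each group has 1 array.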
